A study of Mus musculus with 4 samples.

Results

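The enzymes described here carry out the conjugation steps of liver detoxification. They were taken by gene symbol, as every row beginning with Ugt1, Ugt2 or Ugt3 (UDP-glucuronosyltransferases), Sult (cytosolic sulfotransferases), or Gsta, Gstm, Gstp, Gstt, Gstk, Gsto, Gstz or Mgst (glutathione transferases). This gave 56 of 25793 gene rows, of which 20 are glucuronosyltransferases, 12 sulfotransferases and 24 glutathione transferases.

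Conjugating enzymes make a drug, hormone, bile pigment or reactive metabolite more polar, so that it can leave the cell through export pumps. Glucuronosyltransferases sit in the endoplasmic reticulum and transfer glucuronic acid from UDP-glucuronic acid, sulfotransferases take sulfate from the donor PAPS, and glutathione transferases join glutathione to electrophiles. Hepatocytes are the main site of all these reactions in the body. Several of the genes are controlled by the nuclear receptors CAR (Nr1i3), PXR (Nr1i2) and PPAR alpha (Ppara). Further regulators are the liver factor HNF4 alpha (Hnf4a) and the oxidant-responsive transcription factor NRF2 (Nfe2l2).

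RNA sequencing counts were available for 4 mouse liver libraries. Tumours 1 and 2 are labelled as liver tumours of mice with 1 working copy each of beta-2SP (beta-2 spectrin, listed in the files as Spnb2) and SMAD3, the TGF-beta signal transducer that beta-2 spectrin binds (beta-2SP+/- ; SMAD3+/-). The other libraries are labelled normal liver, 1 from a mouse of that double heterozygous genotype and 1 from a wild type mouse. The labels give no age, sex, strain or treatment, and do not say whether the tumours came from different animals. Their Xist and Ddx3y counts, given below, differ as between a female and a male animal. The p-values measure only the spread between these 2 tumours. Short descriptions attached to the samples use other words: Elf-Tcell for tumour 1, Smad-Tcell for tumour 2, Smad-Hepatocytes for the double heterozygous normal liver and mHepatocyte for the wild type one.

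Gene counts per library ranged from 11049931 (tumour 1) to 18448621 (the normal table labelled wild type). Before any averaging the libraries were compared: the normal tables held equal counts in 56.8% of 2632 low genes (average count from 1 to 5), where 29.3% would be expected of separate libraries. For the tumours the values were 13.1% and 22.8%. Sampling noise alone would set the normal tables further apart than they were, so their rounded mean was counted as 1 sample. Spnb2 had 16607 and 19149 counts in tumours 1 and 2, 3364 in the double heterozygous and 3549 in the wild type normal table. Smad3 had 4521, 2174, 426 and 460 in the same order. For both genes the higher values were in the tumours and the normal tables were close to each other. Xist had 0 counts in tumour 1, 6626 in tumour 2 and 9 in each normal table, and the Y-linked Ddx3y had 2208, 2, 1669 and 1860. Defining markers of hepatocytes were low in both tumours, with Alb at 123 and 807 counts against 1083426 and 1194814, while the 7 bile duct markers summed to 3827 and 3157 unscaled CPM (counts relative to all gene counts of the library) against 24.8 and 22.8. Of these, Krt7, Krt19, Sox9, Spp1 and Tspan8 were higher in both tumours. Epcam (356 and 4 counts against 46 and 48) and Cftr (466 and 7 against 15 and 16) were higher in tumour 1 but lower in tumour 2. Of 7 T cell markers 6 were at 0 in each tumour. Most of these marker levels differed between the tumours and normal liver, as did many genes given here. The part of the marker levels in those differences was not tested. In bulk RNA, fewer cells of a type and less RNA per cell cannot be told apart.

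Summed over the families, glucuronosyltransferases took 1274 and 304 unscaled CPM in tumours 1 and 2, against 6805 and 6830 in the normal tables labelled double heterozygous and wild type. Sulfotransferases took 44.3 and 43.7 unscaled CPM against 335 and 333. Glutathione transferases took 2778 and 1137 unscaled CPM against 4586 and 4768. All 3 families were lower in each tumour than in either normal table, glutathione transferases by the smallest ratio in both tumours. A level of at least 10 CPM, from here on scaled by TMM, was reached by 39 members in normal liver, by 22 in tumour 1 and by 15 in tumour 2. Of the 56 members, 5 had 0 counts in every library and 8 had counts in normal liver but 0 in both tumours.

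Each gene was tested for a difference between the tumours and normal liver with edgeR, and a gene was called when its Benjamini-Hochberg adjusted p over all 14484 genes tested was under 0.05. Low counts kept 10 members out of the test. Of the 46 tested, 14 fell, where 5.19% of all genes tested did. These were 6 of 17 glucuronosyltransferases, 3 of 6 sulfotransferases and 5 of 23 glutathione transferases. No member was called higher, where 2.19% of all genes were (7.38% in either direction). At an unadjusted p under 0.05, 30 members were lower (15.6% of all genes) and 3 were higher (12.3% of all genes). DESeq2 called 29 members lower (12.7% of all genes) and 3 higher (12.5%). The median log2 fold change of the members tested was -4.64, against 0.18 over all genes tested. By family it was -6.88 for glucuronosyltransferases (-6.52 with the 4 genes at 0 in both tumours taken at their lower bound), -5.22 for sulfotransferases and -2.42 for glutathione transferases. Among members reaching 10 CPM in some library, both tumours lay below both normal tables in 34 of 43 (39.5% of all genes) and above both in 6 (41.6% of all genes).

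**Figure D1:**
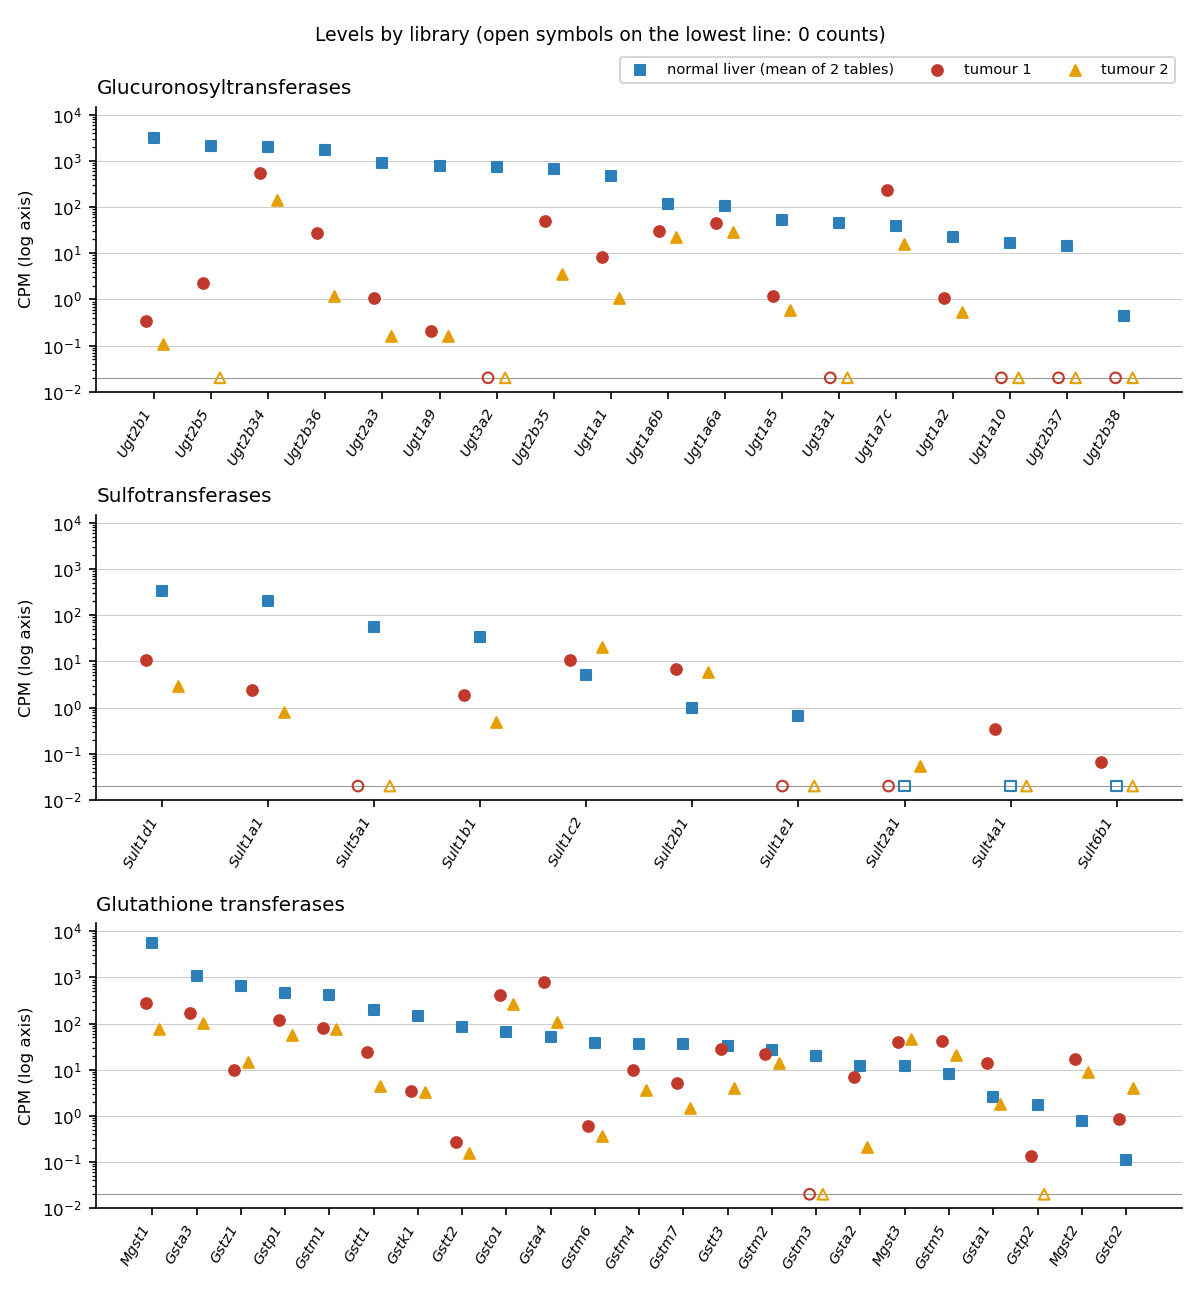
Level of each member with at least 1 count, in CPM scaled by TMM on a log axis, by family and ordered by the level in normal liver. Squares are normal liver (mean of its 2 tables, counted as 1 sample), circles tumour 1 and triangles tumour 2, and open symbols on the lowest line stand for 0 counts. Tumour symbols lie below the squares for most members, and above them in both tumours for Gsta4, Gsto1, Gstm5, Mgst2, Mgst3, Gsto2, Sult1c2 and Sult2b1.

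The glucuronosyltransferases of the Ugt2 group, which act on steroids, bile acids and many drugs, held most of the family's counts in normal liver. Ugt2b1 had 5 and 2 counts in tumours 1 and 2, 26861 in the double heterozygous and 30135 in the wild type normal table. It fell by 13.77 on the log2 scale (SE 1.19, edgeR adjusted p = 0.0184). Ugt2a3 had 16 and 3 counts against 7443 and 8728, and fell by 10.50 (SE 1.33, adjusted p = 0.0293). For both genes each tumour was far below either normal table (39.5% of all genes lay below both in both tumours). Ugt2b5 had 33 and 0 counts against 15796 and 21969, yet missed the threshold (adjusted p = 0.0765, SE 2.42), and 56.4% of its 31-base words (31-mers) also occur in other genes. Counts of such genes depend on how reads that fit several genes were treated, and are uncertain.

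A graded series of levels was seen along the other Ugt2 genes. Ugt2b36 stood at 27.8 CPM in tumour 1, 1.18 CPM in tumour 2 and 1704 CPM in normal liver (adjusted p = 0.112). Ugt2b35 stood at 49.3 and 3.48 CPM against 670 CPM (adjusted p = 0.15). Ugt2b34 kept the most, with 8041 and 2665 counts against 17906 and 18893, or 541 and 143 CPM where normal liver had 2023 CPM (a log2 value of -2.57 with SE 0.99, adjusted p = 0.19). Both tumours lay below both normal tables in every Ugt2 gene tested (39.5% of all genes did so and 41.6% lay above), but the tumours differed widely from each other in these 3 genes, and none of them passed the test. Ugt2b37 had 0 counts in both tumours against 110 and 146, at least 77.6-fold lower, without a call (adjusted p = 0.0598). Ugt2b38 had 5 and 2 counts in normal liver and 0 in the tumours, below the filter for testing. Ugt2a1 and Ugt2a2, known from the olfactory epithelium, had 0 counts throughout. Of the 31-mers of Ugt2b38, Ugt2a1 and Ugt2a2, 52.9%, 97.8% and 93.65% also occur in other genes. Low or 0 counts of these 3 genes are therefore uncertain and do not show that they were not expressed.

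The shift within the group was large. Ugt2b34 made up 87.0% of all Ugt2 counts in tumour 1 (exact 95% binomial interval 86.3 to 87.7) and 96.7% in tumour 2 (95.9 to 97.3), against 20.3% (20.1 to 20.6) and 18.3% (18.1 to 18.6) in the normal tables. Ugt2b1 made up 30.5% and 29.2% of them in the normal tables. These intervals, like the bounds given for counts of 0, cover counting error only. In the RefSeq order of genes on chromosome 5 (GRCm38.p6), Ugt2b34 is the outermost of 13 neighbouring members, with Ugt2b1 directly beside it. That run continues through Ugt2b35, Ugt2b36, Ugt2b5, Ugt2b37, Ugt2a3, Ugt2b38, Ugt2a1 and Ugt2a2 to Sult1b1, Sult1d1 and Sult1e1, with no other protein-coding gene between them.

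Both Ugt3 genes, whose enzymes use sugar donors other than UDP-glucuronic acid, were at 0 counts in both tumours. Ugt3a2 had 6101 and 7333 counts in the normal tables and was at least 4074-fold lower (edgeR adjusted p = 0.0212). Ugt3a1 had 401 and 434 counts and was at least 254-fold lower (adjusted p = 0.0308). A count of 0 was read as at most 3 counts, which is 0.202 CPM in tumour 1 and 0.161 CPM in tumour 2. The neighbouring Ugt3 genes share 18.9% (Ugt3a1) and 15.2% (Ugt3a2) of their 31-mers with other genes, mostly each other.

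The Ugt1 genes form 1 locus in which alternative first exons are joined to the same final exons, so that each gene has its own promoter and substrate-binding part. Through those exons and further similarity between some of them, 53.0 to 84.2% of the 31-mers of these 8 genes occur in other genes too, and how reads from those exons were counted is not stated. In RefSeq order the members run from Ugt1a10 through Ugt1a9, Ugt1a7c, Ugt1a6b, Ugt1a6a, Ugt1a5 and Ugt1a2 to Ugt1a1. Because each has its own start, the RefSeq windows from 250 bases before to 50 after the start (GRCm38.p6) are shown for 3 of them, chosen because their levels differ most clearly below. They lie on the + strand at chr1:88070529-88070828 (Ugt1a9), chr1:88094751-88095050 (Ugt1a7c) and chr1:88211709-88212008 (Ugt1a1). No letter is in capitals, since none of the 18 glucuronosyltransferase windows held the motif searched, the antioxidant core described with the glutathione transferases.
Ugt1a9: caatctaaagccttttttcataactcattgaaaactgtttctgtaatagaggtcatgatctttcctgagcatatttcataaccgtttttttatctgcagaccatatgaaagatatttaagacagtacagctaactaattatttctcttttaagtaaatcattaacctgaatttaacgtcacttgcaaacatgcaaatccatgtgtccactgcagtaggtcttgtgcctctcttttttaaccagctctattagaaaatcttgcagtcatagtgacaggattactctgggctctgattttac
Ugt1a7c: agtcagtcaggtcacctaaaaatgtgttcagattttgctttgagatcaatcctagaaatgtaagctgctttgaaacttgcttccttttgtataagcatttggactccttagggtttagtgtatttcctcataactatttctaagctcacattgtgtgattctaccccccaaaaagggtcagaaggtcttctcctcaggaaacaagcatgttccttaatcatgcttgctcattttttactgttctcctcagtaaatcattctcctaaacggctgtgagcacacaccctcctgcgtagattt
Ugt1a1: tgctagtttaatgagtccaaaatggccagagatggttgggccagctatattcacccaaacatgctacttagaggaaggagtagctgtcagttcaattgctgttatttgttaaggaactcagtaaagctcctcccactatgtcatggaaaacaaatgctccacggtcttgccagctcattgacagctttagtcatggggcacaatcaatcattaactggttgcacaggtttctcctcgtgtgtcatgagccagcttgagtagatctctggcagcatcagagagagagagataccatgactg

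Ugt1a9, an enzyme of phenol conjugation, had 3 counts in each tumour against 6859 and 7396 in the normal tables, and fell by 12.02 on the log2 scale (SE 0.79, edgeR adjusted p = 0.018). Ugt1a1, the bilirubin-conjugating enzyme, had 125 and 20 counts against 4388 and 4043 (log2 fold change -6.62, SE 1.34), which missed the threshold at adjusted p = 0.0643. Ugt1a10 had 0 counts in both tumours against 132 and 170, at least 91.6-fold lower (adjusted p = 0.0537). With the normal table labelled wild type alone as normal liver, Ugt1a10 passed (adjusted p = 0.0491). Ugt1a5 had 18 and 11 counts against 461 and 516 and fell by 5.90 (SE 0.79, adjusted p = 0.0326), a call that was lost without a scaling factor (0.0588). Ugt1a2 had 16 and 10 against 169 and 232 (adjusted p = 0.062). In these 5 genes each tumour lay below either normal table, as in 39.5% of all genes reaching 10 CPM in some library.

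The middle of the locus looked different. Ugt1a7c had 3555 counts in tumour 1 and 292 in tumour 2 against 249 and 470, or 239 and 15.6 CPM against 39.6 CPM. Tumour 1 was thus above and tumour 2 below normal liver, and the gene did not pass (log2 fold change 1.69, SE 1.68, adjusted p = 0.549). Ugt1a6a and Ugt1a6b, close copies that conjugate small planar phenols, stood at 44.8 and 28.3 CPM against 103 CPM, and at 30.3 and 22.2 CPM against 117 CPM. Neither passed (adjusted p = 0.189 and 0.0953). Of all Ugt1 counts, Ugt1a9 made up 49.3% (48.4 to 50.1) and 48.7% (47.9 to 49.5) in the normal tables, but 0.0621% (0.0128 to 0.181) and 0.235% (0.0484 to 0.684) in the tumours. In tumour 1 Ugt1a7c made up 73.5% of them (72.3 to 74.8). Tumour 2 was led by Ugt1a6a at 41.4% (38.6 to 44.1) and Ugt1a6b at 32.4% (29.8 to 35.0), with Ugt1a7c at 22.8% (20.6 to 25.2).

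**Figure D2:**
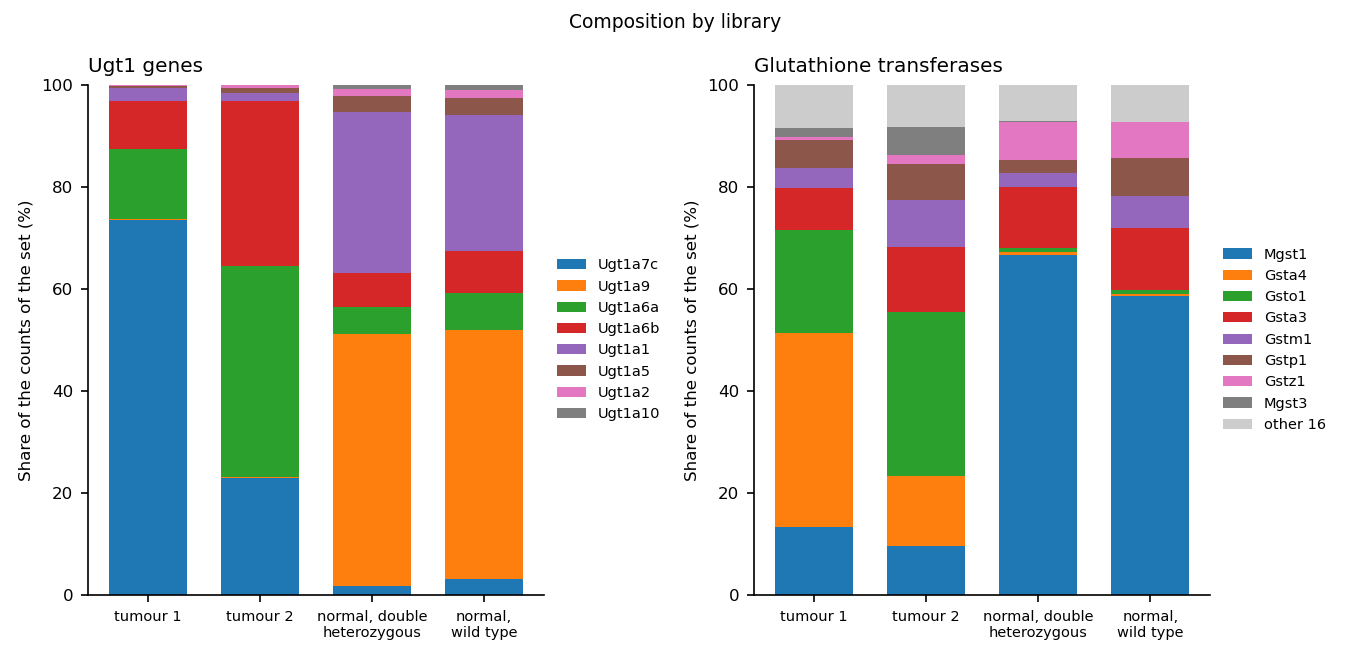
Composition of the counts of the 8 Ugt1 genes (left) and of the 24 glutathione transferase genes (right) in each library, as stacked shares in percent of the counts of each set. The 8 glutathione transferase genes with the highest share in some library are shown and the other 16 are pooled in grey; Ugt1a9 and Mgst1 lead the normal tables, and Ugt1a7c, Ugt1a6a, Gsta4 and Gsto1 lead in a tumour.

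Of the 6 sulfotransferases tested, Sult1a1, Sult1d1 and Sult5a1 fell. Sult1a1, which acts on simple phenols, had 36 and 15 counts in tumours 1 and 2 against 1649 and 2004, and fell by 6.96 on the log2 scale (SE 0.89, edgeR adjusted p = 0.0295). Sult1d1, which acts on dopamine and related amines, had 158 and 55 counts against 2935 and 3151, and fell by 5.63 (SE 0.95, adjusted p = 0.0469). That call was lost without a scaling factor (adjusted p = 0.0639). Sult5a1 had 0 counts in both tumours against 404 and 611 and was at least 308-fold lower (adjusted p = 0.0278). In these 3 genes both tumours lay below both normal tables, as did 39.5% of all genes reaching 10 CPM in some library. Sult1b1, a thyroid hormone sulfotransferase, had 28 and 9 counts against 291 and 313 but missed the threshold (log2 fold change -4.81, SE 1.07, adjusted p = 0.0758).

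A pair of sulfotransferases stood higher in both tumours without passing the test. Sult1c2 had 159 and 393 counts against 44 and 47, or 15.9 ± 7.33 CPM (SD, n = 2) where normal liver had 5.06 CPM (a log2 value of 1.65 with SE 0.89, adjusted p = 0.301). Sult2b1, which sulfates cholesterol and pregnenolone, had 103 and 108 counts against 9 and 9, or 6.36 ± 0.806 CPM against 0.99 CPM (log2 value 2.67, adjusted p = 0.234). Both tumours exceeded both normal tables for each gene, as in 41.6% of all genes reaching 10 CPM in some library. Sult2b1 did not reach that level and lies outside that share. Together they made up most of the sulfotransferase counts in the tumours: Sult1c2 32.4% (28.3 to 36.8) and 67.6% (63.7 to 71.4), Sult2b1 21.0% (17.5 to 24.9) and 18.6% (15.5 to 22.0). In the normal tables Sult1d1 made up 55.0% and 51.3%. The other 6 members were too low to test. Sult1e1, the oestrogen sulfotransferase, had 4 and 7 counts in normal liver and 0 in the tumours. Sult2a1, of steroid and bile acid sulfation and known to be abundant in female mouse liver, had 1 count in tumour 2 and 0 elsewhere. Its counts are uncertain, as 55.6% of its 31-mers also occur in other genes. Sult4a1 had 5 and Sult6b1 1 count in tumour 1 only, and Sult1c1 and Sult3a1 had none.

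Of 23 glutathione transferases tested, 5 fell, 0 rose and 18 did not pass. Mgst1, a membrane-bound enzyme of endoplasmic reticulum and mitochondria, was the leading member of normal liver per transcript length, at 4721 CPM per kb. It had 4066 and 1452 counts in the tumours against 48759 and 51448 (log2 fold change -4.97, SE 1.08), and missed the threshold at adjusted p = 0.0746. The tumours lay 3.51-fold apart. It made up 66.7% (66.3 to 67.0) and 58.5% (58.2 to 58.8) of all glutathione transferase counts in the normal tables, and 13.2% (12.9 to 13.6) and 9.61% (9.14 to 10.1) in tumours 1 and 2.

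The members that fell were of several classes. Gstz1, which as maleylacetoacetate isomerase also serves tyrosine breakdown, had 149 and 268 counts against 5424 and 6196, and fell by 5.71 on the log2 scale (SE 0.63, edgeR adjusted p = 0.0246). Gstk1, the mitochondrial and peroxisomal kappa enzyme, had 51 and 60 against 1245 and 1347, and fell by 5.42 (SE 0.56, adjusted p = 0.0222). Their tumour values were close to each other and far from the normal ones. Gstt2, of the theta class, had 4 and 3 counts against 721 and 810, and fell by 8.58 (SE 0.75, adjusted p = 0.0187). Gstm6 had 9 and 7 against 263 and 427, and fell by 6.26 (SE 0.81, adjusted p = 0.0306), a call lost without a scaling factor (0.0592). Gstm3 had 0 in both tumours against 100 and 251, at least 107-fold lower. Its call (adjusted p = 0.0491) was lost with the double heterozygous table alone as normal liver (0.0679) and without a scaling factor (0.0705).

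Other members stayed at moderate levels in the tumours. Gsta3, which conjugates the epoxide of aflatoxin in mice, stood at 169 and 104 CPM where normal liver had 1066 CPM (a log2 value of -2.97 with SE 0.66, adjusted p = 0.0765). Gstp1, the pi class enzyme and in rat liver a classical marker of preneoplastic foci, had 1735 and 1054 counts against 1865 and 6583. Gstm1 had 1201 and 1397 against 2008 and 5461. In both genes the normal tables differed from each other over 2-fold, as described below. The log2 fold changes were -2.42 (SE 0.68, adjusted p = 0.115) and -2.40 (SE 0.53, adjusted p = 0.0758). Gstt1, of the theta class, had 364 and 81 counts against 1779 and 1863 (adjusted p = 0.12). Gstm4 and Gstm7 stood at 6.72 ± 4.28 and 3.25 ± 2.54 CPM (SD, n = 2) against 36.5 and 36.0 CPM, also without a call.

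Gsta4 and Gsto1 led the glutathione transferases of the tumours per transcript length. Gsta4, which detoxifies the lipid peroxidation product 4-hydroxynonenal, had 11692 counts in tumour 1 and 2063 in tumour 2, against 441 and 471. This is 786 and 111 CPM against 50.1 CPM, with both tumours above both normal tables and 7.11-fold apart (log2 fold change 3.16, SE 1.48, adjusted p = 0.249). Gsto1, an omega class enzyme with dehydroascorbate reductase activity, had 6178 and 4854 counts against 558 and 632, or 338 ± 110 CPM (SD, n = 2) against 65.4 CPM (2.37, SE 0.72, adjusted p = 0.13). Neither gene shares a 31-mer with another gene. In the normal tables each made up at most 0.763% of the glutathione transferase counts. In tumour 1 Gsta4 made up 38.1% (37.5 to 38.6) and Gsto1 20.1% (19.7 to 20.6), and in tumour 2 they made up 13.6% (13.1 to 14.2) and 32.1% (31.4 to 32.9).

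The membrane enzymes Mgst2 and Mgst3, relatives of leukotriene C4 synthase, stood opposite to Mgst1. Mgst2 had 254 and 164 counts against 6 and 7, or 12.9 ± 5.87 CPM where normal liver had 0.77 CPM (a log2 value of 4.06 with SE 1.14, adjusted p = 0.116). Mgst3 had 578 and 843 against 101 and 113, or 42.0 ± 4.45 CPM against 11.8 CPM (1.84, SE 0.64, adjusted p = 0.162). Gstm5 had 616 and 391 against 71 and 79, or 31.2 ± 14.5 CPM against 8.25 CPM (1.92, SE 0.79, adjusted p = 0.209), and 11.1% of its 31-mers lie in 4933431E20Rik too. Gsto2 had 13 and 76 counts against 0 and 1, for which no fold is given. In these 4 genes both tumours were above both normal tables, as in 41.6% of all genes reaching 10 CPM in some library. Gsto2 did not reach that level and lies outside that share. At an unadjusted p under 0.05 the 3 members higher were Gsto1 (0.0265), Mgst2 (0.021) and Mgst3 (0.0406), while DESeq2 called Gsta4 (adjusted p = 0.0351), Gsto1 (0.0178) and Mgst2 (0.00848) higher.

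**Figure D3:**
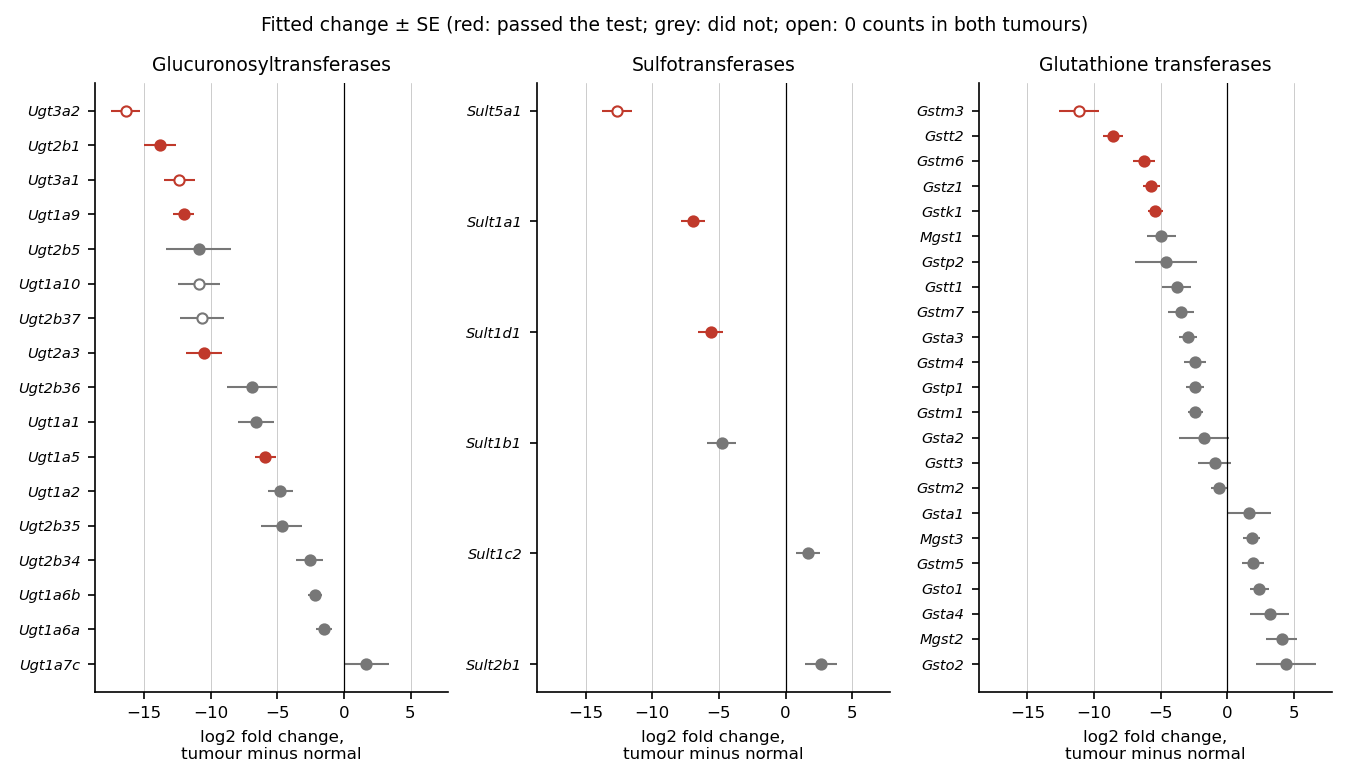
Fitted log2 fold change of the tumours over normal liver for the 46 members tested, by family, with bars of 1 SE. Red points passed the edgeR test (14 members, all below 0), grey points did not, and open points had 0 counts in both tumours, so that their position depends on the fit's prior count and is no bound.

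The remaining glutathione transferases had no single direction. Gstm2 had 323 and 260 counts against 118 and 378 (log2 fold change -0.61, SE 0.65, adjusted p = 0.571), a value that changed sign with the double heterozygous table alone as normal liver (0.29) and without a scaling factor (0.76). Gstt3 had 424 and 75 against 280 and 300 (-0.97, SE 1.22, adjusted p = 0.635; 0.38 without a scaling factor). Gsta1 had 208 and 33 against 18 and 27 and Gsta2 103 and 4 against 86 and 136. These alpha class copies share 92.9% and 60.7% of their 31-mers with other genes. Gstp2 had 2 and 0 counts against 1 and 31, and Gstt4 had none.

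Positions within gene clusters did not go with 1 direction. In the run of 7 Gstm genes on chromosome 3, Gstm5 lies at one end and lay above normal liver in each tumour, its neighbours Gstm7, Gstm6 and Gstm3 lay below it in each, and Gstm4 lies at the other end. Gstm5 and Gsta3 are shown as members on opposite sides of normal liver whose windows hold the core of an antioxidant response element, the DNA site of NRF2, in capitals (TGACNNNGC). They lie on the + strand at chr3:107895604-107895903 and chr1:21240335-21240634 (GRCm38.p6).
Gstm5: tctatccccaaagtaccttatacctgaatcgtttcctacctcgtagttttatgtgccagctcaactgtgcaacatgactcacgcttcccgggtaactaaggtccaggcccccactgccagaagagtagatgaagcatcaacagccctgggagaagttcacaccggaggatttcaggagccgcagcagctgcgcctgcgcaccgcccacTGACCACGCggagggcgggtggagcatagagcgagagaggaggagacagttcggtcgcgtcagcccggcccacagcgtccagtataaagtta
Gsta3: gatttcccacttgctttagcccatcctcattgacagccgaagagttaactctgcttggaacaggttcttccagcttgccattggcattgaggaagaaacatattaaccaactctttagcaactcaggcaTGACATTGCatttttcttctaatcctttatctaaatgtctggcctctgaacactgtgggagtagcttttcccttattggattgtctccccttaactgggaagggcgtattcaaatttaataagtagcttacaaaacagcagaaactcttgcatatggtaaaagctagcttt
The core was found on either strand in 4 of the 61 windows of the 50 members with one (6.56%), those of Gsta3, Gstm5, Gstm7 and Mgst1, against 12.4% of all windows. Its share over all member windows was thus not above that of all genes. The 4 matches all lay among the 31 glutathione transferase windows, where the share was 12.9%, close to that of all windows. Gsta4 had no window. A match describes these letters and is not a measured binding site.

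Most of the larger differences between the tumours were toward tumour 1. Of 22 members with at least 10 CPM in a tumour, 11 were over 2-fold higher in tumour 1 and 0 were over 2-fold lower, where 12.1% and 15.8% of all 9626 genes compared were. With 1 library on each side there is no test. The members were Ugt2b36 (21.5-fold), Ugt1a7c (15.2-fold), Ugt2b35 (13.7-fold), Gsta1 (7.47-fold), Gsta4 (7.11-fold), Gstt3 (6.92-fold), Gstt1 (5.52-fold), Ugt2b34 (3.78-fold), Mgst1 (3.51-fold), Sult1d1 (3.50-fold) and Gstp1 (2.06-fold). The median log2 ratio of tumour 1 to tumour 2 was 1.01 over the 22 members and 0.005 over all genes compared. Sult1c2, Gstz1 and Mgst3 were the 3 members higher in tumour 2, all by less than 2-fold. Below that level Gsto2, at 0.874 and 4.07 CPM, was 4.22-fold higher in tumour 2.

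Other values moved with this difference. The 6 hepatocyte markers summed to 2534 unscaled CPM in tumour 1 and 427 in tumour 2, a difference that rests on Apob (25518 and 2795 counts). Hnf4a had 2323 and 1991 counts, and the other 4 were lower in tumour 1: Alb (123 and 807), Ttr (9 and 23), Apoa1 (16 and 48) and Cps1 (9 and 11). The 7 stellate cell and fibroblast markers summed to 6.43 and 971 unscaled CPM, with Lrat at 0 in both tumours. The 6 liver endothelial markers summed to 0.724 and 1.81 unscaled CPM, with Clec4g at 0 in both. The 6 Kupffer cell markers found summed to 26.1 and 6.69 unscaled CPM, with Clec4f and Timd4 at 0 in both. That difference rests mainly on Marco (121 and 1 counts) and Emr1 (93 and 0), with Csf1r at 44 and 23, while Cd68 (30 and 65) was higher in tumour 2. The 4 B cell markers summed to 0 and 1 count. Xist and Ddx3y, given above, also separate the tumours, and several conjugating enzymes are known to differ between male and female mouse liver. The part of these in the difference was not tested.

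**Figure D4:**
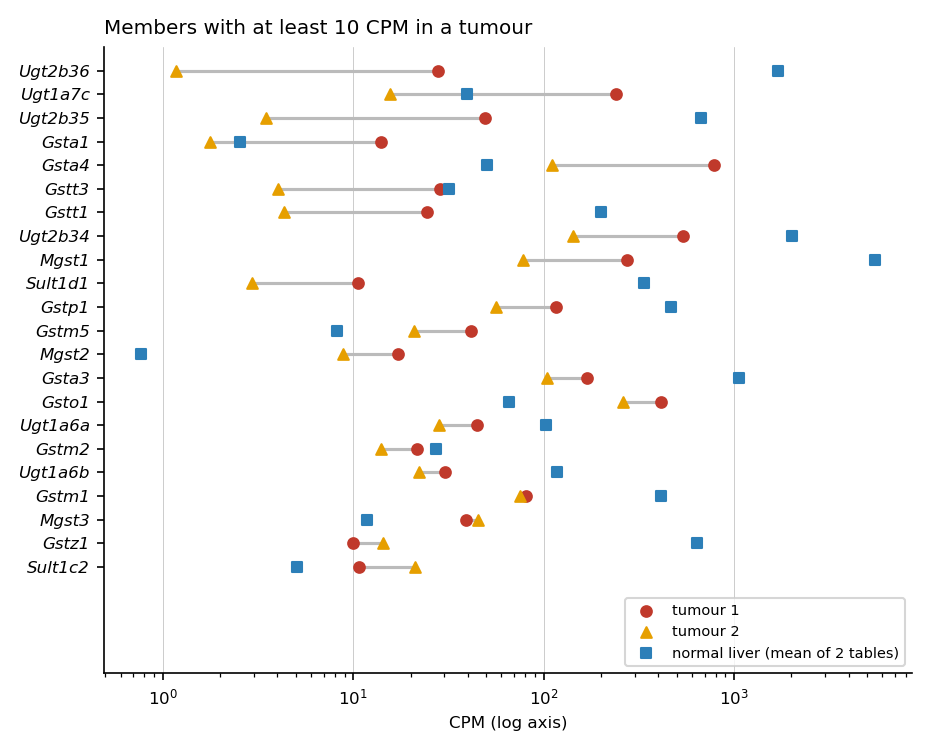
Levels in CPM (log axis) of the 22 members with at least 10 CPM in a tumour, ordered by the ratio of tumour 1 (circles) to tumour 2 (triangles), with grey lines joining the tumours and squares for normal liver (mean of 2 tables). Circles lie to the right of the triangles in all but Sult1c2, Gstz1 and Mgst3.

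Between the normal tables the conjugation genes were close, with exceptions in the glutathione family. Of 39 members with at least 10 CPM in either table, 0 were over 2-fold higher in the double heterozygous table (0.977% of all 8294 genes compared) and 4 were over 2-fold lower (3.47%). They were Gstp1 (log2 ratio -1.54), Gstm2 (-1.39), Gstm1 (-1.16) and Gstm3 (-1.04). All 4 were among the 21 members with over 10% of their 31-mers in other genes, and the 18 members below that limit lay between -0.42 and 0.21. Gstp1 shares 38.5% of its 31-mers with Gstp2, and Gstm1 22.6% with the pseudogene Gstm2-ps1. The 17 glucuronosyltransferases compared, though rich in shared sequence, had none over 2-fold. Non-unique alignments were 51.5% of all in the double heterozygous table and 30.7% in the wild type one, and their part in these ratios was not tested. The tables share counts, so genotype and a different handling of the same reads cannot be told apart here.

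**Figure D5:**
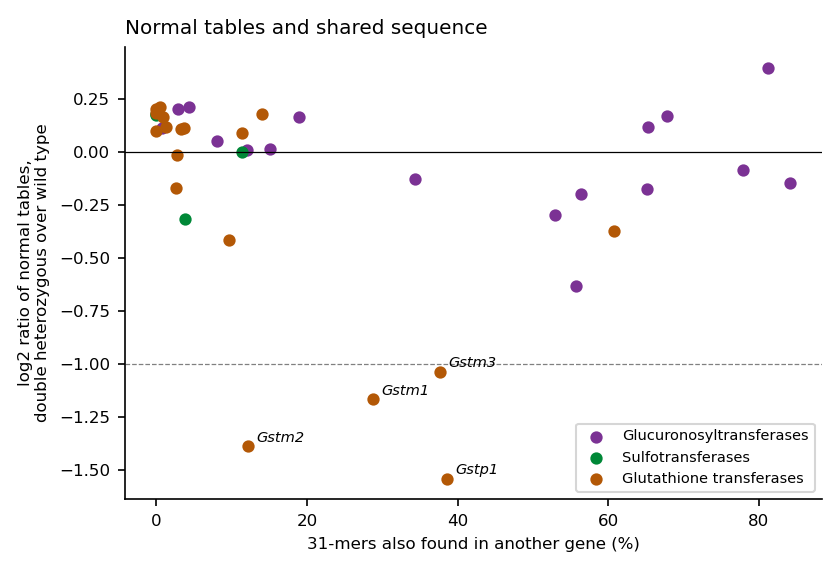
Log2 ratio of the normal table labelled double heterozygous to that labelled wild type, plotted against the percentage of each gene's 31-mers that also occur in another gene, for the 39 members with at least 10 CPM in either table, coloured by family. The dashed line marks 2-fold; the 4 members beyond it are Gstp1, Gstm2, Gstm1 and Gstm3.

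Genes that supply the conjugation reactions showed different pictures for each donor. The counts of each list stand beside 5.19% of all genes tested that fell and 2.19% that rose. For UDP-glucuronic acid 1 of 4 genes fell: Slc35d1, a carrier of the sugar donor into the endoplasmic reticulum, with 36 and 68 counts against 1891 and 2449 (log2 fold change -6.29, SE 0.62, adjusted p = 0.0212). Ugdh, which makes the donor, stood at 177 and 250 CPM against 225 CPM (-0.08, SE 0.59, adjusted p = 0.945). For sulfate 3 of 8 genes tested fell and 0 rose. Papss2, a PAPS synthase, had 442 and 601 counts against 2676 and 2864 (-3.30, SE 0.52, adjusted p = 0.0417; 0.0823 without a scaling factor). The sulfate carrier gene Slc26a1 had 0 in both tumours against 4370 and 4587, at least 2717-fold lower, and the sulfite oxidase gene Suox fell by 3.75 (SE 0.54, adjusted p = 0.036; 0.0754 without a scaling factor). The other PAPS synthase gene, Papss1, stood at 58.0 and 85.9 CPM against 15.2 CPM without a call (adjusted p = 0.124).

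For glutathione and the mercapturate steps that follow it, 2 of 14 genes tested fell and 1 rose (5.19% and 2.19% of all genes tested). Slc7a11, the cystine importer, had 2726 and 2485 counts against 0 and 0, at least 480-fold higher (adjusted p = 0.0209). Anpep, which trims glutathione conjugates, had 6 and 4 counts against 3225 and 3415 and fell by 10.19 (SE 0.76, adjusted p = 0.018). Nat8, the final acetyltransferase, was at 0 against 324 and 330, at least 198-fold lower (adjusted p = 0.0353; 0.0535 without a scaling factor). Gclc, the limiting enzyme of glutathione synthesis, stood at 870 CPM in tumour 1 and 133 CPM in tumour 2 against 270 CPM (adjusted p = 0.677). Of 13 genes of other conjugation and hydrolysis reactions tested, 6 fell and 0 rose: Acsm1, Acsm3 and Acsm5 of medium-chain acyl-CoA synthesis, the methyltransferase gene Inmt, and the amino acid conjugation genes Glyat and Baat. Acsm5 had 1 count in each tumour against 2853 and 3457, and Inmt 3 and 2 against 3053 and 3530.

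Export pumps went both ways, with 2 of 9 higher and 1 lower (2.19% and 5.19% of all genes tested). Abcc1, a pump of glutathione conjugates found in most tissues, had 4902 and 4931 counts against 18 and 21 and rose by 7.07 (SE 0.85, adjusted p = 0.0269). Abcc5 had 3570 and 3236 against 48 and 62 and rose by 5.09 (SE 0.76, adjusted p = 0.0379). Abcc6 had 14 and 1 against 8200 and 9412 and fell by 10.95 (SE 1.63, adjusted p = 0.0379). Abcc2, the canalicular pump of bilirubin glucuronides, had 249 and 3 counts against 22353 and 25490 but missed the threshold, with the tumours far apart (adjusted p = 0.128).

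Of 14 regulator genes 2 fell and 0 rose (5.19% and 2.19% of all genes tested). Nr1i3 had 0 counts in both tumours against 2343 and 3960, at least 1912-fold lower (adjusted p = 0.0212), though 67.1% of its sampled 31-mers occur in other genes. Ppara had 49 and 11 against 7713 and 8493 (log2 fold change -8.85, SE 1.29, adjusted p = 0.0363). Nr1i2 had 62 and 3 against 1534 and 1873 (adjusted p = 0.105). Hnf4a, at 2323 and 1991 counts where the normal tables had 11330 and 12038, had no call either (adjusted p = 0.0618). Nfe2l2 stood at 279 and 196 CPM against 56.8 CPM (2.06, SE 0.65, adjusted p = 0.14) and Ahr, the dioxin receptor gene, at 71.0 and 345 CPM against 51.0 CPM (adjusted p = 0.324). At an unadjusted p under 0.05, as by DESeq2, 7 regulators were lower and 1 higher, 3 pumps lower and 4 higher, 3 sulfate genes lower and 1 higher, and 1 UDP-glucuronic acid gene lower and 0 higher. Other conjugation genes were lower in 12 cases at that p and in 10 by DESeq2, with 0 higher, and glutathione genes lower in 4 and 3, with 1 higher. Over all genes, 15.6% were lower and 12.3% higher at an unadjusted p under 0.05, and DESeq2 called 12.7% lower and 12.5% higher. Of 8 other NRF2 target genes 0 passed in either direction by edgeR, while 4 were higher at an unadjusted p under 0.05 and DESeq2 called 4 higher. Nqo1 stood at 0.942 CPM in tumour 1 and 88.5 CPM in tumour 2 against 5.17 CPM, so that tumour 1 lay below and tumour 2 above normal liver (adjusted p = 0.476). The medians of the lists were 2.12 for NRF2 targets, 1.82 for pumps, -0.28 for glutathione, -0.38 for sulfate, -0.75 for UDP-glucuronic acid, -2.05 for regulators and -6.02 for other conjugation genes, beside 0.18 over all genes tested.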

How the data were processed

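The authors deposited 1 table of raw read counts per gene symbol for each library, with no normalization. The submitters' processing notes name TopHat2 2.0.10, HTSeq, Trimmomatic, FastQC, DESeq2 and the build mm9, with no role given. Strand and other counting settings: not given in the sources used here. Each table closes with 5 lines that name no gene, which were left out: reads outside genes were 13.6 to 31.5% of all, non-unique alignments 30.7% (wild type normal table) to 51.5% (double heterozygous one) and ambiguous reads at most 0.107%.

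Both normal tables were averaged and rounded to 1 library because of shared counts. In R 4.3.3, edgeR 4.0.16 was run on all genes (TMM, filterByExpr with a minimum count of 10, glmQLFit, glmQLFTest, Benjamini-Hochberg adjustment, threshold 0.05), leaving 1 residual degree of freedom, from the tumours. Normal liver is taken to vary like the tumours. The SE is |log2 fold change| over the root of the F statistic. CPM values are TMM-scaled. Ratios of 1 library to 1 used a prior count of 2 and no test; those of the normal tables used the scaling of all 4 tables, as did the overlap counts. Alternatives were RLE, upper quartile and no scaling, DESeq2 1.42.0, no filter, other uses of the normal tables, leaving out each tumour, and leaving out genes with shared sequence. The model script was tested on simulated data.

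Shared sequence was computed from GENCODE M21 transcripts (GRCm38, both strands), matched by symbol or synonym for 89.4% of rows (over 10% of 31-mers counts as shared; the filter over all genes used 1 k-mer in 16). Lengths are of the longest coding transcript there. Promoter windows are from RefSeq (GRCm38.p6). A regulator and a motif chosen for this work are not reported here. No coordinates of the counted genes are given, since the builds differ. Exact binomial intervals used scipy 1.17.1.

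Members and gene lists were chosen with earlier results of these data known. Named members were the 6 highest per length in normal liver in each family, those at 20 CPM or more in a tumour, those called higher, and large differences that did not pass; other members were chosen after their values were seen. Of the lists, up to 4 called genes per direction and 8 regulators or donors were named; Papss1, Glyat, Baat, Abcc2 and Hnf4a were added after their values were seen.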

Additional observations from a re-analysis of the deposited data

How the results depend on the processing

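The 14 members called lower became 16 with DESeq2's size factors, 14 with upper quartile scaling, 10 without a scaling factor, 29 with the DESeq2 test, 26 without the filter on low counts, 29 with the normal tables as separate libraries and 8 without genes with shared sequence (23 members then tested). For glucuronosyltransferases the 6 became 14 (DESeq2), 13 (no filter), 14 (separate normal tables) and 2 (no shared sequence, 4 tested). For glutathione transferases the 5 became 11, 9, 11 and 3 (13 tested) in the same order, and 3 without a scaling factor. Fewer genes were tested without shared sequence; for the other settings the cause was not tested. Members called higher were 0 except with DESeq2 (3) and with separate normal tables (6), which share counts. With 1 normal table left out, 13 to 15 members were called lower.

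Over all 14484 genes tested, 752 were called lower and 317 higher. These became 1740 and 1712 of 13651 (DESeq2) and 1388 and 877 of 18729 (no filter). They became 3157 and 3058 of 13511 (separate normal tables) and 472 and 631 of 14484 (no scaling factor). The lower share of calls was thus 70.4% and, in that order, 50.4%, 61.3%, 50.8% and 42.8%. With DESeq2's size factors 931 of 14484 were lower and 394 higher, and with upper quartile scaling 719 and 383. Without a scaling factor the median of all genes moved by 1.38 on the log2 scale and that of the members from -4.64 to -3.31. Upper quartile scaling moved the former by 0.24, and separate normal tables by -0.10. With tumour 2 or tumour 1 alone, without a test, the member median was -5.26 or -3.39. Signs changed without a scaling factor for Gstm2 (0.76), Gstt3 (0.38) and Ugdh (1.31, and 0.16 with upper quartile scaling). For Gstm2 the value went from -1.10 without the double heterozygous normal table to 0.29 without the wild type one. With tumour 2 alone, signs of members changed for Ugt1a7c (-1.33) and Gsta1 (-0.48). Among the other named genes, tumour 2 alone put Gclc below and Ugdh above normal liver, against the sign of the fit. Tumour 1 alone put Nqo1 below it, also against the fit. None of these genes was called. With a minimum of 1 CPM, 20 of 35 members differed over 2-fold between the tumours, all but Gsto2 higher in tumour 1. The share of all genes at that minimum was not computed, so this count cannot be set against it. No paired analysis was possible because the normal tables carry no replicate numbers and count as 1 sample. Depth limits genes at or near 0 in the tumours: folds of genes at 0 in both are bounds, and those of genes with a few counts are fitted values, not bounds.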
